A study of Mus musculus with 6 samples.

Results

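Matrix metalloproteinases (MMPs), the ADAMTS proteases and their tissue inhibitors (TIMPs) were followed in stromal cells of mouse bone marrow deficient in CXCL12, the chemokine that holds blood-forming cells in the marrow. The genes were chosen by symbol, as every entry named Mmp, Timp, Adamts or Adamtsl followed by its number, which gave 45 of the 17128 genes analysed: 19 MMPs, 4 TIMPs, 17 ADAMTS proteases and 5 ADAMTS-like proteins. The CXCL12-deficient group (3 libraries) was sorted as GFP+tdTomato+ cells from Cxcl12(GFP/fl); Col2a1-cre; R26R(tdTomato/+) mice, and the control group (3 libraries) as GFP+ cells from Cxcl12(GFP/fl); R26R(tdTomato/+) mice. All came from femurs at postnatal day 21, with the distal growth plates removed and the bone digested with collagenase, and about 20000 sorted cells went into each library. Both groups therefore carry GFP in place of Cxcl12 on the other allele. The Col2a1 promoter drives cre in cartilage and early skeletal precursors, so the cre transgene, the tdTomato gate and the loss of the floxed allele came together and cannot be told apart.

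MMPs are zinc proteases that are made as inactive precursors and cut collagens, gelatin and other matrix proteins, either free or held at the cell surface. ADAMTS proteases act on procollagens and on the large proteoglycans of the matrix, and ADAMTS-like proteins share their binding domains but lack the protease. TIMPs block MMPs by filling the active site, and Timp3 also blocks several ADAMTS proteases. In bone, osteoblasts, osteocytes and growing cartilage make Mmp13, osteoclasts and neutrophils make Mmp9, and neutrophils store Mmp8 in their granules.

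The libraries held between 20133299 and 28009257 counts, so 1 read was worth 0.0357 to 0.0472 CPM (counts scaled to library size, with TMM factors). Cxcl12, summed over its 4 exon entries, had 1423, 1280 and 1163 CPM in CXCL12-deficient libraries, against 3876, 3673 and 3694 CPM in control libraries (log2 fold change -1.54 with an SE of 0.17, adjusted p = 0.00527 by edgeR's quasi-likelihood test). Its exon 2 entry had 34.6, 22.6 and 21.8 CPM in CXCL12-deficient libraries, against 375, 413 and 366 CPM in control libraries. The exon 4 entry, which held most of the reads, had 1261, 1121 and 998 CPM in CXCL12-deficient libraries, against 3127, 2845 and 2976 CPM in control libraries. Markers of stroma were present in every library: Lepr, the leptin receptor of CXCL12-abundant reticular (CAR) cells, had 810 to 1260 CPM in CXCL12-deficient and 630 to 688 CPM in control libraries. Blood markers were present as well, and several lists of them differed between the groups. The summed level of 14 neutrophil markers was 2469 to 7084 CPM in CXCL12-deficient libraries and 14960 to 21050 CPM in control libraries. None of the 14 was at 0 in all libraries. All 14 had a negative log2 fold change, and 13 were called lower by edgeR. Called lower by edgeR as well were 7 of 15 tested markers of monocytes and macrophages, 4 of 7 of megakaryocytes and 3 of 10 of the B lineage. So were 6 of 12 of endothelium and 4 of 6 of fibroblasts and tendon, where 3.94% of all tested genes were called lower. In the monocyte and macrophage list 5 markers had a positive log2 fold change, uncalled: C1qa (0.46), C1qb (0.78), C1qc (0.78), Mrc1 (0.29) and Vcam1 (0.22). The called fibroblast and tendon markers were Ly6a, Pi16, Cd34 and Dpp4, and the tendon genes Scx and Tnmd were not called. Of the erythroid (0 of 7), osteoclast (0 of 7), chondrocyte (0 of 11), osteoblast (0 of 10) and pericyte and smooth muscle markers (0 of 6) none was called by edgeR. The median log2 fold change was 0.115 for erythroid and 0.017 for osteoblast markers. It was -0.89 for osteoclast, -1.33 for chondrocyte and -0.94 for pericyte and smooth muscle markers, which leaned lower without a call. In these bulk libraries fewer cells of a type and less RNA per cell cannot be told apart. Whether each library is from its own animal is not stated in the labels, so p-values measure the spread between libraries.

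A cluster of MMP genes on chromosome 9 held both the most abundant family gene and the gene that fell. In GENCODE M21 it spans 427 kb of GRCm38, from 7272514 to 7699585, and 10 MMP genes lie in it. Mmp13 (plus strand, 7272514 to 7283331) opens the cluster, and Mmp8 (plus strand, 7558456 to 7568485) starts 275 kb beyond its end. Mmp13 encodes the main interstitial collagenase of mouse bone and cartilage, and Mmp8 the collagenase of neutrophils. The 250 bases before each RefSeq gene start (GRCm38.p6) are shown because these neighbours differed in their values. Mmp8 occupies chr9:7558179-7558428 and Mmp13 chr9:7272264-7272513, both on the plus strand. Capitals mark matches to 5 motifs, searched on both strands and chosen after the windows had been read.

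Mmp8: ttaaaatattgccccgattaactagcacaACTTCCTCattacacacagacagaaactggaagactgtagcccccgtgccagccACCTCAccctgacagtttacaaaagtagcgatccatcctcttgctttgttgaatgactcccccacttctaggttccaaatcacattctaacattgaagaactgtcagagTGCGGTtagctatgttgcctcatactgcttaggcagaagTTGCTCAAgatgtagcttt

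Mmp13: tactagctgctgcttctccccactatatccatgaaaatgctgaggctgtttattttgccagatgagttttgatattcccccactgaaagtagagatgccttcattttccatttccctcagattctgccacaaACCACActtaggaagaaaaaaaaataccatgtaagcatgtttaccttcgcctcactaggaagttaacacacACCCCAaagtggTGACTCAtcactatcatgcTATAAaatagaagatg

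The Mmp8 window held the letters GAGGAAGT of PU.1, a factor of myeloid cells, at bases -221 to -214 on the reverse strand, and TTGCNNAA of C/EBP factors at -19 to -12. Of 32851 RefSeq promoter windows of this length, 2.44% held the PU.1 letters and 9.56% the C/EBP letters. The Mmp13 window held TGANTCA of AP-1 at -35 to -29 and TATAA of a TATA box at -16 to -12, which 6.75% and 22.8% of windows held. The letters TGNGGT, a loose form of the RUNX motif with any base at N, occurred at 2 places in each window, and in 40.1% of all windows. They read TGAGGT and TGCGGT at Mmp8, and TGTGGT and TGGGGT at Mmp13. Only TGCGGT and TGTGGT have the C or T that the RUNX motif holds at that base. No match overlapped another. These matches are a description of the letters, and binding was not measured.

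Mmp13 was the family's most abundant transcript per length, and its groups overlapped. It had 4132, 4140 and 4878 CPM in CXCL12-deficient libraries, against 4966, 3792 and 3173 CPM in control libraries. The highest value belonged to a control library, and the log2 fold change was 0.14 (95% interval -0.34 to 0.62, adjusted p = 0.786, edgeR). Per kilobase of exon Mmp13 made up 73.5%, 65.3% and 72.6% of the MMP signal in CXCL12-deficient libraries, and 69.5%, 66.5% and 61.8% in control libraries. The 10 osteoblast markers, summed, stood at 14470, 19910 and 12970 CPM in CXCL12-deficient libraries and at 28760, 11590 and 8256 CPM in control libraries. Control replicate 1 was highest for this sum and for Mmp13. In the CXCL12-deficient group replicate 3 had the lowest sum (12970 CPM) and the highest Mmp13 (4878 CPM). The part of these markers in the level of Mmp13 was not tested.

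Mmp8 fell 5.77-fold in CXCL12-deficient libraries. It had 111, 62.0 and 24.8 CPM in CXCL12-deficient libraries, against 295, 366 and 478 CPM in control libraries. Every CXCL12-deficient library lay below every control library, and on the log2 scale Mmp8 differed by -2.53 with a standard error of 0.46 (adjusted p = 0.0188, edgeR). The 14 neutrophil markers, which do not include Mmp8, had a median log2 fold change of -2.03. Per 100 CPM of these markers Mmp8 had 1.56, 1.62 and 1.005 CPM in CXCL12-deficient libraries and 1.97, 1.74 and 2.40 CPM in control libraries. This ratio did not overlap either, and its log2 difference was -0.57 (exact two-sided permutation p = 0.1, the smallest that 3 against 3 allows, and 0.133 adjusted over the 4 ratios compared). The log2 ratio of Mmp8 to Mmp13 was -6.30 ± 1.22 in CXCL12-deficient and -3.39 ± 0.67 in control libraries (SD, n = 3 each, exact permutation p = 0.1). Whether the lower neutrophil markers set the level of Mmp8 was not tested. With 1 library left out the fold ran from 4.39 without CXCL12-deficient replicate 3 to 8.73 without CXCL12-deficient replicate 1. The call of Mmp8 was lost without CXCL12-deficient replicate 2, control replicate 2 or control replicate 3, with adjusted p of 0.0681, 0.0637 and 0.0799 (edgeR).

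The other measured genes of the cluster had few reads. Over all 6 libraries Mmp10 had 4 reads, Mmp12 had 8 and Mmp3 had 10. These 3 genes, which encode stromelysins and the macrophage elastase, did not pass the filter on low counts. Mmp27 had 43 reads and an interval from -4.55 to 2.60 on the log2 scale. Mmp1a, Mmp1b, Mmp7 and Mmp20 were not analysed here.

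**Figure D1:**
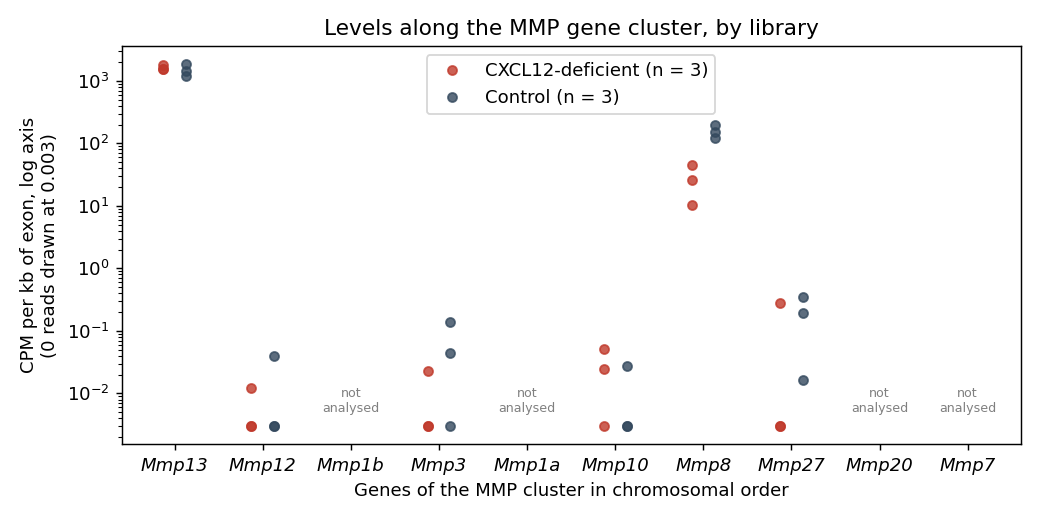
Levels of the MMP genes of the chromosome 9 cluster, in chromosomal order, as CPM per kilobase of exon on a log axis, with a point for each library. Mmp13 lay between 1187 and 1858 in all 6 libraries, Mmp8 at 10.2 to 45.6 in CXCL12-deficient and 122 to 197 in control libraries, and the other 4 measured genes reached 0.3495 at most. Libraries with 0 reads are drawn at the lower edge.

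Across the family the share of called genes was near that of all tested genes. Of 36 members that passed the filter on low counts, Mmp8 was called lower and Mmp11 higher (adjusted p below 0.05 over all genes), where 4.57% of the 13926 tested genes were called, 3.94% lower and 0.639% higher. The groups did not overlap at 6 of the 36, namely Mmp8, Mmp25 and Adamts12 on the lower side and Mmp11, Mmp28 and Adamts4 on the higher side, where 25.6% of all tested genes did not overlap. Log2 fold changes were above 0 at 23 of the 36, and their median was 0.13 against 0.03 over all tested genes. Among the 23 tested members with at least 10 CPM on average, 15 had a 95% interval that lay within 2-fold in either direction. The median coefficient of variation of these 23 was 26.4% in CXCL12-deficient and 15.8% in control libraries. In the CXCL12-deficient group replicate 1 was the lowest library at 17 of the 36 members and replicate 3 the highest at 20. The control group was uneven too, with replicate 1 highest at 17 and replicate 3 lowest at 17.

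**Figure D2:**
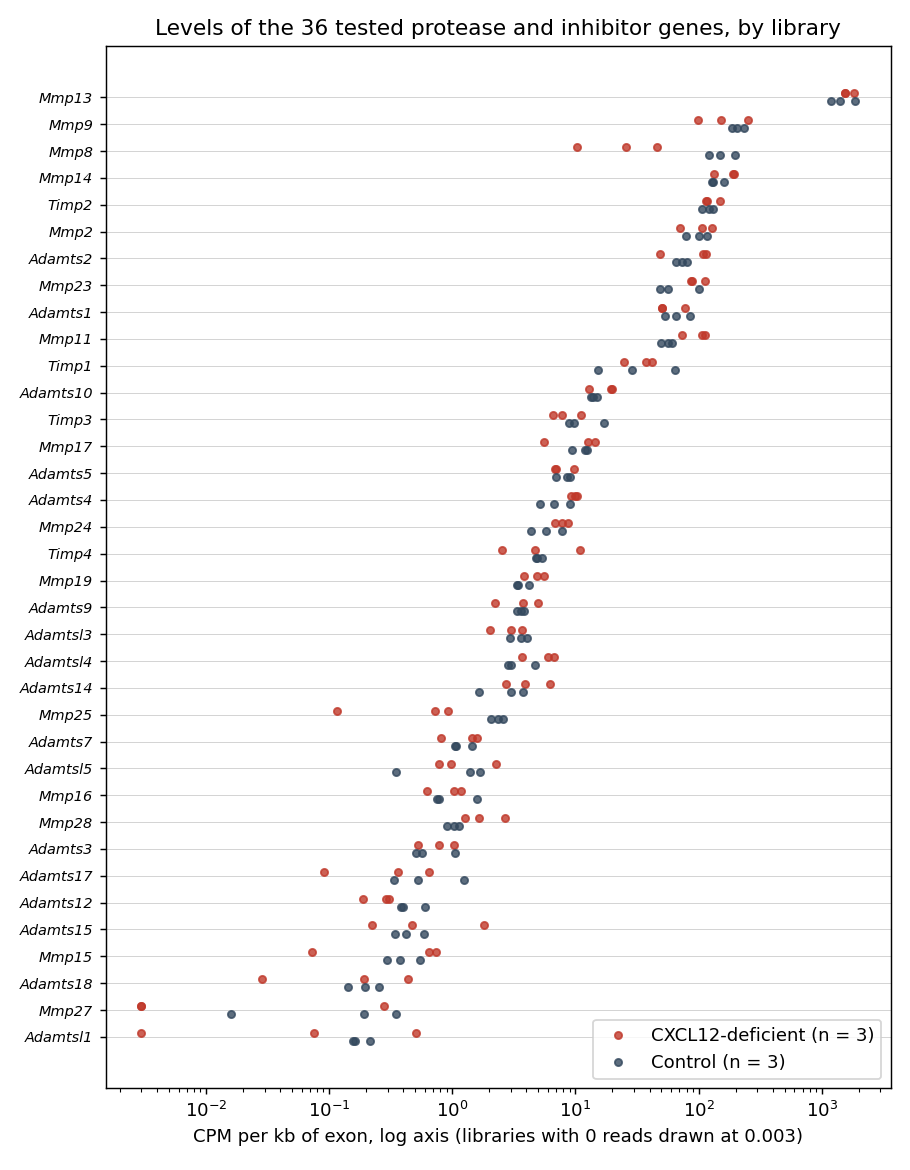
Levels of the 36 tested members in CPM per kilobase of exon (log axis), ordered by the control mean, with the points of the CXCL12-deficient libraries drawn above those of the control libraries. Mmp13 stands above all others at 1640 and 1488 in the group means, and the points of the groups are apart at Mmp8, Mmp25 and Mmp11 among others.

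Mmp11 was 1.75-fold higher. Its product is activated inside the cell by furin, cuts matrix proteins weakly and is known from fibroblasts of remodelling tissue and tumour stroma. It had 203, 315 and 295 CPM in CXCL12-deficient libraries, against 157, 170 and 137 CPM in control libraries. All CXCL12-deficient libraries were above all controls, by 0.81 with a standard error of 0.19 on the log2 scale (adjusted p = 0.0487, edgeR), a value close to the threshold. All 11 CAR cell markers stood above 0 in log2 fold change, and their median was 0.68. Of them 3 were called higher by edgeR, where 0.639% of all tested genes were. Their summed level was 7691 to 9230 CPM in CXCL12-deficient and 4552 to 5317 CPM in control libraries, and its part in the level of Mmp11 was not tested. The fibroblast and tendon markers, summed, ran the other way, with 11.8 to 28.7 CPM in CXCL12-deficient and 86.2 to 106 CPM in control libraries. Of them Ly6a, Pi16, Cd34 and Dpp4 were called lower. The tendon genes Scx (log2 fold change -1.68, adjusted p = 0.427, edgeR) and Tnmd (0.24, adjusted p = 0.877, edgeR) overlapped between the groups. Against Mmp14 the log2 ratio of Mmp11 was -1.93 ± 0.07 in CXCL12-deficient and -2.43 ± 0.21 in control libraries (SD, n = 3 each, exact permutation p = 0.1). Exons of Mmp11 overlap those of Chchd10 on the opposite strand, and the strand setting of the counts is not given. Chchd10 had 28.8 ± 12.95 CPM in CXCL12-deficient and 58.5 ± 21.0 CPM in control libraries (SD), which is the other direction. With 1 library left out the call of Mmp11 held only without CXCL12-deficient replicate 1 (adjusted p = 0.0171), and the other refits gave 0.109 to 0.239 (edgeR). It was also lost with DESeq2 size factors in place of TMM (adjusted p = 0.0517, edgeR).

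The gelatinases Mmp2 and Mmp9 overlapped between the groups. Mmp2, a gelatinase of stromal cells, had 238, 432 and 360 CPM in CXCL12-deficient libraries, against 396, 339 and 268 CPM in control libraries, with a log2 fold change of 0.04 (95% interval -0.50 to 0.57). Mmp9, which osteoclasts and neutrophils make, had 351, 889 and 542 CPM in CXCL12-deficient libraries, against 826, 663 and 722 CPM in control libraries. Its log2 fold change was -0.31 (95% interval -0.98 to 0.36, adjusted p = 0.640, edgeR), and the CXCL12-deficient libraries held both its lowest and its highest value. In CXCL12-deficient replicate 1, which had the most neutrophil marker signal of its group, Mmp9 was lowest. Per 100 CPM of neutrophil markers Mmp9 had 4.96, 23.2 and 21.9 CPM in CXCL12-deficient libraries and 5.52, 3.15 and 3.63 CPM in control libraries (exact permutation p = 0.2). Of 7 tested osteoclast markers 6 had a negative log2 fold change (median -0.89), and none was called by edgeR. The groups did not overlap at 2 of the 7, both lower, where 25.6% of all tested genes did not overlap. The summed level of 8 osteoclast markers with values was 462.5, 341 and 299 CPM in CXCL12-deficient and 414, 422 and 286 CPM in control libraries. CXCL12-deficient replicate 1 was the highest of its group for this sum, most of which was Ctsk (345 CPM there). Single markers differed in order, with Acp5 highest in CXCL12-deficient replicate 1 (84.4 CPM) and Nfatc1 in CXCL12-deficient replicate 2 (32.8 CPM). Per 100 CPM of osteoclast markers Mmp9 had 76.0, 260 and 181 CPM in CXCL12-deficient and 199.5, 157 and 252 CPM in control libraries. The most abundant of these markers, Acp5 and Ctsk, ran from 30.7 to 84.4 and from 244 to 345 CPM in CXCL12-deficient libraries, and from 50.1 to 103 and from 164 to 295 CPM in control libraries. The part of the neutrophil or the osteoclast markers in the level of Mmp9 was not tested.

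**Figure D3:**
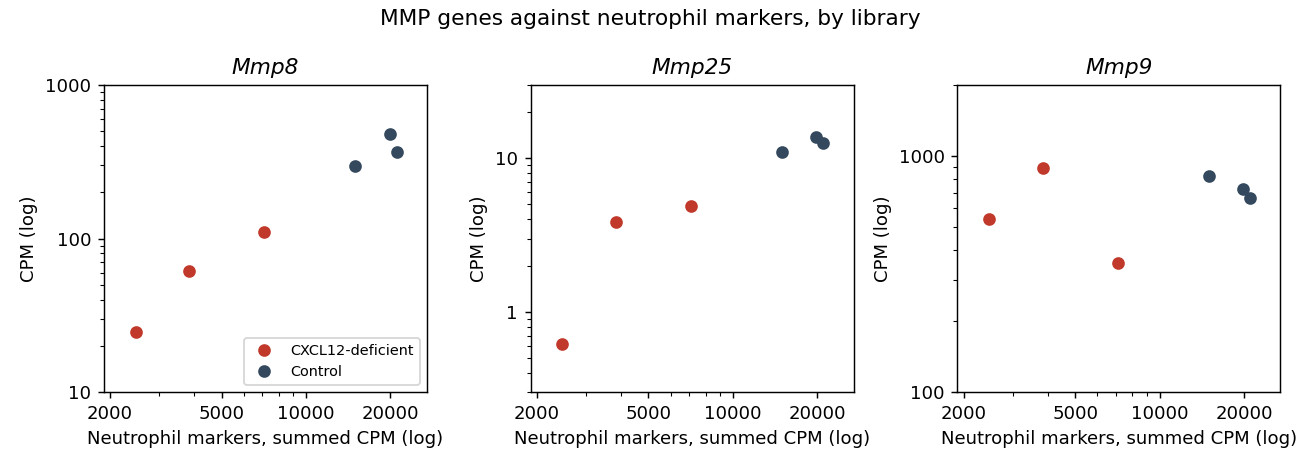
CPM of Mmp8, Mmp25 and Mmp9 against the summed CPM of 14 neutrophil markers, both on log axes, with a point for each library. Mmp8 and Mmp25 are low in the CXCL12-deficient libraries, which have 2469 to 7084 CPM of the markers, while Mmp9 spans 351 to 889 CPM there and 663 to 826 CPM in controls.

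Of the 6 membrane-type MMPs none was called by edgeR, where 4.57% of all tested genes were called. Mmp14, which cuts collagen at the cell surface and activates the precursor of Mmp2 together with Timp2, had 803, 1139 and 1148 CPM in CXCL12-deficient libraries, against 955, 783 and 772 CPM in control libraries. The groups overlapped, with a log2 fold change of 0.30 (95% interval -0.14 to 0.74). Mmp25, a lipid-anchored protease of neutrophils, had 4.92, 3.84 and 0.622 CPM in CXCL12-deficient libraries, against 10.9, 12.5 and 13.8 CPM in control libraries. The groups did not overlap, but the log2 fold change of -1.99 ± 0.60 (SE) had an adjusted p of 0.111 by edgeR, and DESeq2, and edgeR without CXCL12-deficient replicate 3, called it lower. Per 1000 CPM of neutrophil markers Mmp25 had 0.694, 1.001 and 0.252 CPM in CXCL12-deficient libraries and 0.730, 0.595 and 0.697 CPM in control libraries, which overlapped. Mmp17, also lipid-anchored, averaged 71.8 ± 31.0 CPM in CXCL12-deficient and 74.9 ± 10.9 CPM in control libraries (SD, n = 3 each), and Mmp24 36.4 ± 4.39 and 27.9 ± 7.91 CPM. Mmp16 reached 13.7 CPM and Mmp15 3.96 CPM in their highest library. Exons of Mmp24 and of BC029722 on the opposite strand overlap, and BC029722 ran in the same direction, with 64.9 ± 6.46 CPM in CXCL12-deficient and 50.8 ± 12.4 CPM in control libraries (SD). Reads of the pair may be mixed.

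Among the remaining MMPs, Mmp23, whose product is shed from the cell by cutting at its own membrane anchor, had 262, 205 and 204 CPM in CXCL12-deficient libraries, against 238, 133 and 113 CPM in control libraries. Control replicate 1 lay within the range of the CXCL12-deficient libraries, the adjusted p was 0.391, and without that library it was 0.0494 (edgeR). Mmp28, a furin-activated MMP known from skin, had 6.37, 4.93 and 10.4 CPM in CXCL12-deficient libraries and 3.998, 3.54 and 4.39 CPM in control libraries. These groups did not overlap, but the adjusted p was 0.262 (unadjusted 0.0494, edgeR). Exons of Mmp28 overlap those of 1700020L24Rik on the opposite strand, which had 2.31 to 2.33 CPM in CXCL12-deficient and 3.02 to 4.72 CPM in control libraries. Mmp19, which shares exon bases with Tmem198b on the opposite strand (19.5 ± 3.46 CPM in CXCL12-deficient and 15.7 ± 1.27 CPM in control libraries, SD), stood between 11.9 and 19.7 CPM in all libraries. Mmp21 had 2 reads in all.

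Neither edgeR nor DESeq2 nor limma-voom called any of the 4 TIMPs, where edgeR called 4.57% of all tested genes. By edgeR 0 of the 4 had an unadjusted p below 0.05, where 2634 of all 13926 tested genes had one. With 4 genes such counts say little at these shares. Timp2, which blocks MMPs broadly and also takes part in activating Mmp2, was the most abundant per length, with 460, 447 and 588 CPM in CXCL12-deficient libraries and 509, 470 and 415 CPM in control libraries. Its interval was narrow, from -0.28 to 0.48 on the log2 scale. Timp3, the inhibitor that stays bound to the matrix, had 53.4, 90.3 and 63.3 CPM in CXCL12-deficient libraries and 138, 78.8 and 72.8 CPM in control libraries, with an interval from -1.12 to 0.15. Timp1, which inhibits membrane-type MMPs poorly, had 33.5, 37.4 and 22.1 CPM in CXCL12-deficient libraries and 57.4, 25.4 and 13.6 CPM in control libraries. The control libraries alone spanned 4.23-fold at Timp1, so its interval ran from -1.08 to 0.97. Timp4 had 27.7, 15 and 64.8 CPM in CXCL12-deficient libraries and 28.5, 31.4 and 28.5 CPM in control libraries. Most of its spread lay in the CXCL12-deficient group, and its interval ran from -0.70 to 1.27. Both Timp3 and Timp4 lie within introns of synapsin genes on the opposite strand and share some exon bases with them, but Syn3 and Syn2 reached 3.77 and 4.44 CPM at most.

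Set against the proteases, the TIMP signal per kilobase of exon was 7.94, 7.18 and 7.74 for each 100 of MMP signal in CXCL12-deficient libraries, and 8.12, 7.70 and 7.07 in control libraries. Without Mmp13, which weighs most in that sum, it was 30, 20.7 and 28.2 in CXCL12-deficient and 26.6, 23.0 and 18.5 in control libraries. Both ratios overlapped between the groups. They describe transcripts and say nothing of active enzyme.

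**Figure D4:**
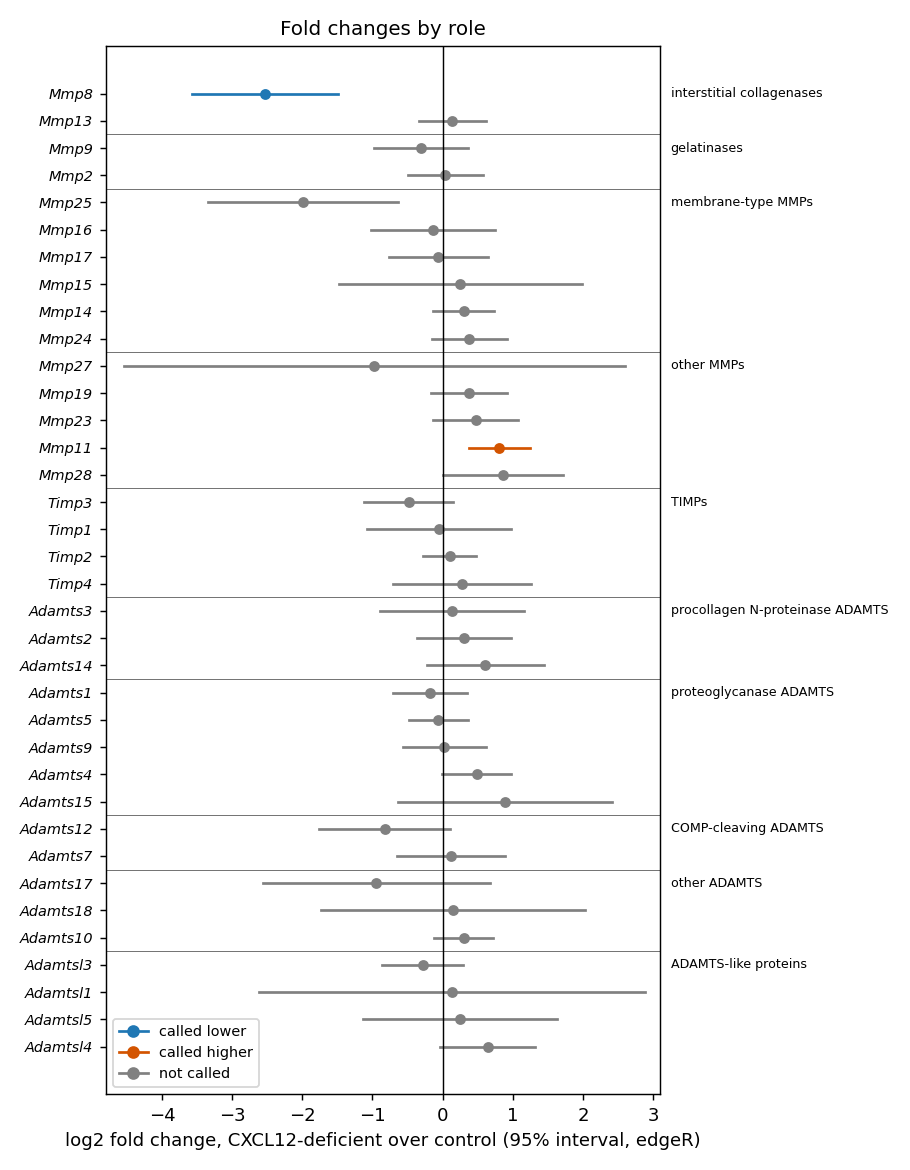
Log2 fold changes of the 36 tested members (CXCL12-deficient over control) with 95% intervals from edgeR, grouped by role and ordered by size within each role. Mmp8 at -2.53 and Mmp11 at 0.81 are the called genes, and Mmp25 at -1.99 lies apart from the other membrane-type genes.

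Adamts2, the protease that removes the amino-terminal propeptide of fibrillar procollagens, was the most abundant ADAMTS per length in the group means. It had 452, 1007 and 1082 CPM in CXCL12-deficient libraries, against 685, 611 and 754 CPM in control libraries. CXCL12-deficient replicate 1 lay below all controls and the other 2 above them, and the log2 fold change was 0.31 (95% interval -0.36 to 0.98). The related Adamts14 had 20.2, 32.1 and 14.3 CPM in CXCL12-deficient and 19.6, 8.62 and 15.5 CPM in control libraries. Adamts3 reached 5.73 CPM at most. Neither edgeR nor limma-voom nor DESeq2 called any of the 13 tested ADAMTS genes, and 0 had an unadjusted p below 0.05 by edgeR. Over all tested genes edgeR called 4.57%, and 2634 of 13926 had an unadjusted p below 0.05.

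Of the ADAMTS proteases that cut proteoglycans such as versican and aggrecan, Adamts1 was the most abundant per length, with 270, 269 and 415 CPM in CXCL12-deficient libraries and 281, 452 and 349 CPM in control libraries. The groups overlapped, with an interval from -0.71 to 0.34. Adamts4, an aggrecanase, had 47.4, 44.3 and 49.9 CPM in CXCL12-deficient libraries and 32.3, 25.0 and 43.8 CPM in control libraries. All CXCL12-deficient libraries were above the controls, yet the log2 fold change of 0.49 ± 0.22 (SE) had an adjusted p of 0.270 (edgeR). Adamts5, the other main aggrecanase, averaged 84.6 ± 17.4 CPM in CXCL12-deficient and 88.2 ± 11.4 CPM in control libraries (SD, n = 3 each), and Adamts9 55.1 ± 20.7 and 54.3 ± 3.64 CPM. Adamts15 reached 18.8 CPM in CXCL12-deficient replicate 3 and 6.09 CPM at most in the other 5 libraries. Adamts20 had 45 reads in all, in 3 of the 6 libraries.

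None of the ADAMTS genes of microfibrils and cartilage was called by edgeR, where 4.57% of all tested genes were called. Adamts10, whose product binds fibrillin, had 107, 164 and 161 CPM in CXCL12-deficient libraries and 124, 115 and 111 CPM in control libraries, with an interval from -0.12 to 0.72. Adamts12, which can cut the cartilage protein COMP, had 3.17, 2.05 and 3.33 CPM in CXCL12-deficient libraries and 4.36, 4.23 and 6.61 CPM in control libraries. Its groups did not overlap, but the adjusted p was 0.323 (edgeR). Adamts7, its closest relative, which overlaps Tbc1d2b on the opposite strand (74.1 ± 12.9 CPM in CXCL12-deficient and 56.8 ± 7.04 CPM in control libraries), averaged 8.10 ± 2.62 CPM in CXCL12-deficient and 7.47 ± 1.35 CPM in control libraries (SD), Adamts17 2.84 ± 2.15 and 5.46 ± 3.76 CPM, and Adamts18 2.25 ± 2.12 and 2.02 ± 0.57 CPM. Adamts6 and Adamts16 had 34 and 21 reads in all, and Adamts13, the protease of von Willebrand factor, had 2. Adamts8 and Adamts19 were not analysed here.

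Among the ADAMTS-like genes Adamtsl4, a fibrillin-binding protein, had 25.3, 15.5 and 28.4 CPM in CXCL12-deficient libraries and 19.8, 12.6 and 11.9 CPM in control libraries (log2 fold change 0.64, 95% interval -0.04 to 1.32). Adamtsl3 averaged 22.6 ± 6.53 CPM in CXCL12-deficient and 27.5 ± 4.35 CPM in control libraries (SD). Adamtsl5 and Adamtsl1 reached 10.8 and 6.48 CPM at most. Adamtsl2, which binds fibrillin and a latent TGF-beta-binding protein, had 0 reads in each CXCL12-deficient library, against 39, 4 and 11 in control libraries. Against a floor of 3 counts over the group it was at least 16.95-fold lower, from a control level of 0.732 CPM, and most of its reads came from control replicate 1. Without that library the bound was 7.59-fold, an alternative chosen after the data were seen. It did not pass the filter, and was not called when all genes were tested.

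Genes that act beside the family were read from 8 lists, of inhibitors, activators, related proteases and substrates. Of 63 tested members of these lists, 4 were called, all lower, where 3.94% of all tested genes were called lower. Adam8, a membrane protease of leukocytes and osteoclasts, had 24.4, 12.1 and 12.7 CPM in CXCL12-deficient libraries, against 99.2, 68.7 and 97.6 CPM in control libraries (a log2 difference of -2.43 with a standard error of 0.30, adjusted p = 0.00549 by edgeR). Plaur, the receptor that holds the plasminogen activator urokinase at the cell surface, fell by 2.13 on the log2 scale (adjusted p = 0.0161), as 1 of 3 tested genes of plasminogen activation. Among 13 cathepsins Ctss, of antigen-presenting cells, and Ctsg, of neutrophil granules and also in the neutrophil list, fell by 1.70 and 1.94 (adjusted p = 0.00549 and 0.0347). The leukocyte gene Ptprc fell in the same libraries, to 10.2 to 16.9 CPM in CXCL12-deficient libraries, against 59.8 to 107 CPM in control libraries, and its part in these 4 results was not tested. The call of Plaur was lost without CXCL12-deficient replicate 2, control replicate 2 or control replicate 3 (adjusted p of 0.0549 to 0.0715, edgeR). That of Ctsg was lost without CXCL12-deficient replicate 1, control replicate 2 or control replicate 3 (0.0977 to 0.126).

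By edgeR no member was called in the lists of other inhibitors (7 tested), activators of MMP precursors (5), procollagen processing (9), proteoglycan substrates (5) and fibrillin microfibrils (9). At an unadjusted p below 0.05 there were 1, 0, 1, 0 and 2, where 2634 of all 13926 tested genes had one (edgeR). DESeq2 called 8 genes over all lists, the 4 above and, named after their values were seen, Loxl2 of procollagen crosslinking, Ltbp4 of microfibrils, Adam10 and the cathepsin Ctso. The most abundant members of these lists were Serpine2, an inhibitor of plasminogen activators and thrombin, with 5269 to 6088 CPM in CXCL12-deficient and 3533 to 5187 CPM in control libraries, Bsg, a surface inducer of MMPs, with 914.5 to 1087 and 796 to 857.5 CPM, Bmp1, the procollagen C-proteinase, with 429 to 813 and 529 to 760.5 CPM, and Fbn1, of fibrillin microfibrils, with 411 to 616 and 308 to 456 CPM. Comp, a cartilage matrix protein that Adamts7 and Adamts12 can cut, was the most abundant proteoglycan-list gene, with 34.8, 7.02 and 11.3 CPM in CXCL12-deficient libraries and 12.5, 88.1 and 33.5 CPM in control libraries. Comp is also in the chondrocyte list. Col2a1, the cartilage collagen gene, had 377, 15.2 and 12.3 CPM in CXCL12-deficient libraries and 86.9, 1149 and 343 CPM in control libraries. Both Comp and Col2a1 overlapped between the groups. Of the 11 tested chondrocyte markers 9 had a negative log2 fold change and 2, Sox9 and Col10a1, a positive one.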

How the data were processed

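The authors deposited whole-number read counts per gene symbol for 6 mouse libraries, which were analysed here. Their processing notes name TopHat2 2.0.13, Bowtie2 2.2.1, HTSeq, Cufflinks, Cuffdiff, DESeq2 and build mm10, per the submitters' processing notes. How the counting was annotated and stranded is not stated there or in the labels. The deposited tables of depth-normalized counts and of regularized log2 values were not used.

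Libraries were grouped by their labels. The 17131 entries became 17128 genes after the 4 Cxcl12 exon entries were summed. Counts were fitted with edgeR 4.0.16 in R 4.3.3 (filterByExpr with a minimum count of 10 and a minimum total of 15, TMM factors, robust quasi-likelihood test) over 13926 genes, with Benjamini-Hochberg adjustment over all of them and a threshold of 0.05. Levels in CPM use library sizes scaled by the TMM factors. Levels per kilobase divide by GENCODE M21 exon length on GRCm38. The fit was tested on simulated data. Ratios were compared by exact permutation over libraries. Those with Mmp8 and Mmp11 use the counts that gave the calls of these genes, so they are no separate support. Intervals of fold changes are 95% intervals from the edgeR standard error.

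The family and the gene and marker lists were chosen with earlier results of these data known. Named genes are every called member, the 3 most abundant of each role, up to 4 called genes of each pathway list or its most abundant gene, Cxcl12, and any other member by level. Alternatives were DESeq2 1.42.0, limma-voom (limma 3.58.1), other scalings and filters, no robust shrinkage, a threshold of 0.01, and each library left out in turn. Reads shared between overlapping genes on opposite strands could not be separated. Some values of overlapping genes are not reported here. Floors cover counting error only.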

Additional observations from a re-analysis of the deposited data

How the results depend on the processing

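The direction of Mmp8 and Mmp11 held under all 14 alternatives. The adjusted p of Mmp8 ran from 2.15e-08 to 0.0799 and that of Mmp11 from 0.00314 to 0.239. The count of family genes called higher was 0 with DESeq2 size factors and 0 without robust shrinkage. DESeq2 called 2 family genes lower (Mmp8 and Mmp25), 989 and 303 of all genes lower and higher, and 8 pathway genes, against 548, 89 and 4 by edgeR. At an adjusted p below 0.01 edgeR called 0 family genes lower and 0 higher, with 79 and 1 of all genes lower and higher and 2 pathway genes. By edgeR 4 of the 36 tested family genes had an unadjusted p below 0.05, against 2634 of all 13926 tested genes. DESeq2 called 3 family genes at an adjusted p below 0.05. With each library left out in turn, family genes called lower ran from 0 to 2 and higher from 0 to 1, all genes called lower from 74 to 530 and higher from 0 to 76, and pathway genes from 2 to 5. No family gene was called without CXCL12-deficient replicate 2 (9 at an unadjusted p below 0.05), control replicate 2 (4) or control replicate 3 (4). Without control replicate 3 no gene was called higher (515 at an unadjusted p below 0.05). These refits rest on 5 libraries; the cause was not tested further.

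Some uncalled genes changed sign. With limma-voom Adamts18 had -0.57 and Adamts9 -0.055 (log2). With libraries left out, the range was -0.42 to 0.013 for Adamts1, -0.85 to 0.67 for Adamts18, -0.12 to 0.53 for Adamts3, -0.24 to 0.032 for Adamts5, -0.071 to 0.36 for Adamts7, -0.27 to 0.28 for Adamts9, -0.37 to 0.62 for Adamtsl5, -0.038 to 0.36 for Bmp1, -0.011 to 0.31 for Mmp13, -0.32 to 0.26 for Mmp17, -0.16 to 0.25 for Mmp2, -0.035 to 0.17 for Timp2 and -0.47 to 0.65 for Timp4. Of the single-gene values under an alternative, 473 kept direction and side of the threshold, 20 lost the call, 1 gained it and 24 changed sign. No paired analysis was possible because the labels carry no replicate numbers. The 9 untested members had 2 to 54 reads over the 6 libraries and were left out of the main fit. With no filter beyond 1 read all 45 members were tested, and edgeR called only Mmp8 and Mmp11 of them. In that fit 560 and 89 of 17128 genes were called lower and higher. With 3 libraries a group the exact tests are limited to a p of 0.1.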
